A study of Arabidopsis thaliana with 76 samples.

Results

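The 100 genes described here rose in the first hour of light in seedlings of the Arabidopsis thaliana accession Col0 and reached nearly the same level at 22°C and at 27°C. They were chosen by a rule from a table of TPM, a length-corrected level of transcript per gene, that covers 33557 genes in a wild-type (WT) day course with 1 library per time and temperature. Times are zeitgeber times (ZT), in hours after lights on, and ZT0 was sampled in the dark just before dawn. At ZT1, 15059 genes reached 5 TPM in both courses, and 6458 of these had a higher TPM + 1 at ZT1 than at ZT0 in both. The ratio of TPM + 1 at ZT1, 27°C over 22°C, lay between 0.8 and its inverse in 4150 of them, above that window in 1398 and below it in 910. The 100 genes with the largest mean log2 ratio of ZT1 over ZT0 among the 4150 are called the temperature-insensitive ZT1 genes. Their values at ZT0 and ZT1 at 22°C and 27°C chose them and are given as a description, with no test.

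Dawn changes the transcription of many plant genes, through photoreceptors that see red, blue and UV-B light, through the circadian clock and through signals sent by the chloroplast once photosynthesis begins. Flavonoids are phenolic pigments that absorb UV light in the epidermis, and their synthesis is switched on by light through MYB transcription factors. Sulfate assimilation, starch synthesis and the repair of light damage follow the same daily rhythm of light and sugar supply.

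The tested libraries were made from pools of Col0 seedlings grown in short days of 8 h light and 16 h dark, with 2 libraries a group. The mutants ss4 (allele ss4-1, which lacks starch synthase 4), pgm (plastidial phosphoglucomutase, an enzyme at the entry to starch synthesis), ss3/4 (starch synthases 3 and 4) and ss3/4/pgm were grown at 17°C, as was their WT. ss4 and WT were sampled at 8 times of day and the other mutants at ZT0 and ZT2. WT seedlings in liquid medium at 22°C and 27°C received DCMU (30 µM), DBMIB (50 µM), a mock treatment with ethanol at ZT-1 or nothing. They were sampled at ZT1. DCMU stops electron transfer from photosystem II to plastoquinone, and DBMIB stops plastoquinol oxidation at the cytochrome b6f complex. The mutations and chemicals act in every cell of the seedling, and none of the mutant lines was backed by another allele here. In whole seedlings, fewer cells of a type and less RNA per cell cannot be told apart.

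The 60 libraries with read counts held 3204754 to 19679912 counts (median 9800430), and leaf and shoot markers were high in all of them (3558 to 16876 CPM summed), while the flower markers stayed at or below 0.944 CPM. The seed markers stood apart in 2 libraries at ZT2, at 73.8 CPM in ss3/4 replicate 1 (0.165 CPM in replicate 2) and 25.1 CPM in WT replicate 1 (0.347 CPM in replicate 2), and their part in the results was not tested. CPM are the counts of a gene relative to the total of its library. The CPM of members are scaled by TMM (trimmed mean of M-values) within each of 3 experiments. A WT library therefore has slightly different values in the starch mutant experiment and in the ss4 course. The sums of marker genes and the SS4, SS3 and PGM values are CPM without TMM scaling. SS4 was at 44.0 to 155 CPM in the libraries labelled ss4, against 45.1 to 181 CPM in WT, and at 46.3 to 63.4 CPM in ss3/4. These are counts over the whole gene and do not tell a disrupted transcript from an intact one. SS3 was at 21.7 to 28.0 CPM in ss3/4 and 19.7 to 25.5 CPM in ss3/4/pgm, against 65.7 to 113 CPM in WT. PGM was at 8.05 to 24.8 CPM in pgm and 10.8 to 25.7 CPM in ss3/4/pgm, against 87.4 to 320 CPM in WT. The WT libraries set against pgm, ss3/4 and ss3/4/pgm belong to the ss4 course, so genotype and library set cannot be told apart there. Chloroplast and mitochondrial genes took 7.59% to 10.9% of counts in pgm at ZT2 and 8.997% to 9.48% in ss3/4/pgm at ZT2, against 0.561% to 0.702% in WT at ZT2, and their part in the results was not tested beyond leaving those genes out.

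The inhibitor libraries did not match the replicate of the same label. Across genes, the library labelled DCMU replicate 1 correlated with DBMIB replicate 2 at r = 0.992 at 22°C and 0.987 at 27°C, and DBMIB replicate 1 with DCMU replicate 2 at r = 0.989 at 22°C and 0.992 at 27°C. The 2 libraries of the same label correlated at only 0.892 (DCMU) and 0.888 (DBMIB) at 22°C and at 0.873 (DCMU) and 0.871 (DBMIB) at 27°C. Mock and untreated replicates correlated at 0.992 to 0.994. The labels of these libraries may be crossed, which was not tested, and no library was moved to another group.

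By RefSeq annotation, the 100 genes were 96 protein-coding genes, 2 primary microRNA transcripts, 1 long non-coding RNA and 1 small nuclear RNA. TPM + 1 at ZT1 was 4.47 to 296 times that at ZT0 at 27°C (median 9.61) and 3.28 to 196 times at 22°C (median 7.26). The median TPM at ZT1 was 96.2 at 27°C and 91.3 at 22°C, set against medians at ZT0 of 8.55 TPM at 27°C and 9.55 TPM at 22°C. The largest rise belonged to ELIP1 (AT3G22840), an early light-induced protein of the thylakoid that binds chlorophyll under light stress, with folds of 296 at 27°C and 196 at 22°C. Next came AT2G27420, a cysteine proteinase (140 at 27°C, 115 at 22°C), and LSU2 (AT5G24660), a small protein induced by low sulfur (59.1 and 84.2). F3H, the flavanone 3-hydroxylase of flavonoid synthesis, rose by factors of 55.0 and 27.0, and the MIR157c primary transcript by 73.2 and 12.2. MYB12, an activator of flavonol genes, stood at 33.1 and 22.8.

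The other genes among the first 15 by mean log2 ratio were AT3G09440 of the HSP70 chaperone family (24.1-fold at 27°C and 20.5-fold at 22°C), AT1G16515, an uncharacterized protein (30.1 and 10.9), and AT3G14200, a DnaJ cochaperone (12.4 and 23.3). PAP17, a purple acid phosphatase induced by phosphate shortage, rose 15.02-fold at 27°C and 17.5-fold at 22°C, TBL26 of the cell wall acetylation family 17.3-fold and 14.8-fold, and scpl10, a serine carboxypeptidase-like acyltransferase, 31.3-fold and 7.91-fold. PRR9, a morning repressor of the circadian clock, rose 10.9-fold at 27°C and 21.6-fold at 22°C. AT3G48460, a GDSL lipase, was at 18.4 and 12.1, and the leucine-rich repeat protein AT4G16880 at 16.8 and 12.6. PRR9 and AT3G14200 had the larger rise at 22°C, while F3H, MIR157c, AT1G16515 and scpl10 had it at 27°C, although the levels at ZT1 were within the window for all of them.

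The rule's limits cut through a continuous range. The last genes inside were NF-YC13, AT1G55210, AT4G09750, GBSS1 and IQD23, with mean log2 ratios of 2.51, 2.49, 2.46, 2.44 and 2.44. The first outside were PS2, EC1.4, AT5G45850, DUT1 and CXE13, at 2.43, 2.41, 2.41, 2.41 and 2.40. PHR1 (AT1G12370, a DNA photolyase) and AT2G44670 lay nearest the lower bound, with 27°C over 22°C ratios of 0.8004 and 0.822, and VTC2 and AT1G51090 nearest the upper bound, with ratios of 1.239 and 1.243.

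Grouped by function after the members were known, 9 genes encode enzymes of flavonoid and phenylpropanoid synthesis, among them TT4 (chalcone synthase), TT5 (chalcone isomerase), F3H, UGT78D2 (a flavonoid glycosyltransferase), FAH1 (ferulate 5-hydroxylase) and UGT84A2 (a sinapate glucosyltransferase). Another 3 regulate UV-B and light responses, namely MYB12, MYB13 and RUP2, a repressor of the UV-B receptor. The 6 genes of photoprotection, DNA repair and quinone synthesis were ELIP1, PHR1, SPS1 and SPS2 (solanesyl diphosphate synthases, which make the side chain of plastoquinone and ubiquinone), MSRB6 (a methionine sulfoxide reductase) and VTC2 (ascorbate synthesis). The 6 of sulfur and methionine metabolism were APR2 (adenylylsulfate reductase), LSU1, LSU2, AT1G04770 (a tetratricopeptide repeat protein of the sulfur starvation response), MAT3 (methionine adenosyltransferase) and SHM4 (serine hydroxymethyltransferase). The 4 chaperone genes were AT3G09440, AT3G14200, Fes1A (an HSP70-binding protein) and AT1G66080 (hikeshi-like, a carrier of HSP70). Metal homeostasis held 3 genes (ZIP11, NAS4 and PYE, a regulator of the iron response), growth and hormone metabolism 4 (GA3OX2, XTH32, SMZ and DFL2), and transport, starch and sugar 4, including GBSS1 (granule-bound starch synthase) and the sucrose exporter SWEET13.

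Of 12 functional lists fixed for the comparison, 5 held a member. These were PRR9 of 16 clock genes, RUP2 of 25 light-signalling genes, TT4, TT5, F3H and MYB12 of 12 flavonoid genes, ELIP1 of 12 genes of photoprotection and carotenoid synthesis, and Fes1A of 17 heat genes. No gene of the lists for chlorophyll synthesis, plastid sigma factors, high light and reactive oxygen, touch, nitrate, sugar or the CBF cold response was among the 100.

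Stretches of 30 bases around a G-box (CACGTG, a core recognised by bHLH and bZIP factors of light signalling) are shown for members of the light, flavonoid, clock and plastoquinone groups, so that its place before genes of different roles can be seen. The motif was as frequent in 2 other lists of ZT1 genes described after the sequences. Sequences are from RefSeq TAIR10.1, printed 5′ to 3′ on the strand of the gene, with the motif in capitals.
ELIP1 (chr3:8085718-8085747, minus strand): tactatatgattCACGTGtaatgtttttga
MYB12 (chr2:19476196-19476225, plus strand): tcttacaccacaCACGTGtcatcatctcct
PRR9 (chr2:19232423-19232452, plus strand): ttaggttaatgaCACGTGttaaggtggacc
TT4 (chr5:4488231-4488260, plus strand): gagttaagtatgCACGTGtaagaactggga
SPS1 (chr1:29537515-29537544, minus strand): ttggataaatgaCACGTGgtgaaatcttag
SPS2 (chr1:5828818-5828847, plus strand): atcggtaggaaaCACGTGgtgacatttcag
PHR1 (chr1:4209025-4209054, minus strand): atcacagtctgaCACGTGttgataatgtaa
scpl10 (chr2:9792118-9792147, plus strand): tgctgcaccaacCACGTGactccccgaaat
The G-box began 66 bases before the annotated gene start in ELIP1, 118 in MYB12, 172 in PRR9, 233 in TT4, 50 in SPS1, 85 in SPS2, 43 in PHR1 and 36 in scpl10. PRR9 held another one 244 bases before its start.

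Windows of 250 bases before to 50 bases after each gene start were searched on both strands. The G-box was in 16% of the 100 windows, in 9.04% of those of 14971 expressed genes and in 6.89% of those of all 32809 genes with a window. The members share this with 2 lists of genes that rose at ZT1 by the same rule but had a 27°C over 22°C ratio outside the window. It was in 16.2% of the windows of 99 genes above it (the warm-raised ZT1 genes) and 16% of those of 100 genes below it (the warm-lowered ZT1 genes). It lay before the gene start in 15 members, and in 6 members it overlapped a match to the ABRE-like ACGTGTC, which was in 11% of member windows, 7.07% of warm-raised, 10% of warm-lowered and 5.14% of those of expressed genes. The evening element (AAAATATCT), bound by morning clock factors, was in 9% of member windows, 2.83% of those of expressed genes and 2.61% of all. It was in 8.08% of the warm-raised and 5% of the warm-lowered windows. It is shown in 2 of the 3 members of the first 15 that hold it, on the opposite strand in AT3G14200, and PRR9 is the other one.
AT4G16880 (chr4:9497423-9497452, minus strand): tgtgtgtttcAAAATATCTgtgtagaggaa
AT3G14200 (chr3:4714810-4714839, minus strand): ctatttgaatAGATATTTTttgttctaaga
The related CCA1-binding site (AAAAATCT) was in 14% of member windows, 9.09% of warm-raised, 4% of warm-lowered and 8.16% of those of expressed genes, and it overlapped no evening element. Near the level of expressed genes were the I-box GATAAG (16% of members, 15.01% of expressed genes) and the CRT/DRE core CCGAC (17% and 16.6%). Lower in members were site II TGGGCC (12% and 20.6%), the telo-box AAACCCTA (2% and 5.62%) and the W-box TTGACC or TTGACT (25% and 31.9%). The heat shock element was in 2% of member windows (ELIP1 and AT3G09440) and 0.588% of those of expressed genes. It was in 8.08% of the warm-raised and 0% of the warm-lowered windows. A match is a description of these letters and not a bound site.

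Over the whole day in the warm courses, the median member was highest at ZT1, which follows in part from the rule, and declined through the light hours. Of the 100 genes, 77 were highest at ZT1 at 27°C and 80 at 22°C, and 80 had their highest TPM at the same time at both temperatures. The median log2 ratio to ZT0 was 2.65 at ZT2, 2.22 at ZT4 and 1.85 at ZT8 at 27°C, and 2.20 at ZT2, 2.02 at ZT4 and 1.17 at ZT8 at 22°C. By ZT12, in the dark, it was 0.72 at 27°C and 0.51 at 22°C. ELIP1 had 0.321, 390, 199, 56.0 and 38.7 TPM at ZT0, ZT1, ZT2, ZT4 and ZT8 at 27°C and 1.115, 414, 284, 62.8 and 17.6 TPM at 22°C, and it was below these daytime levels at ZT-4, ZT12 and ZT16. TT4 went on rising after ZT1, with 12.2, 218, 473, 338 and 336 TPM at ZT0, ZT1, ZT2, ZT4 and ZT8 at 27°C and 30.5, 207, 309, 322 and 300 TPM at 22°C. PRR9 fell early, to 5.03 TPM at ZT8 at 27°C, where it had been at 106 TPM at ZT1, and to 4.29 TPM at ZT8 at 22°C.

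The match between temperatures that the rule required at ZT1 was weaker at other times. The ratio 27°C over 22°C lay inside the same window in 60 members at ZT-4 (81.8% of expressed genes), 56 at ZT2 (73.3%), 69 at ZT4 (85.5%), 61 at ZT12 (83.2%) and 66 at ZT16 (81.0%). At ZT0 it did so in 34 members, against 62.7% of expressed genes, with 53 members below the window and 13 above it, and the median ratio was 0.791. The rule uses the ZT0 values in its ranking, so this is a description. At ZT8, which the rule did not use, 47 members were inside the window, against 72.1% of expressed genes. At that time 49 were above it and 4 below it, with a median ratio of 1.23. Of the 15059 expressed genes, 3703 were above it and 500 below it, with a median ratio of 1.12. Of the 100 warm-raised ZT1 genes 59 were above and 5 below, and of the 100 warm-lowered 33 and 16. These values rest on 1 library at each point, with no replicate check.

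**Figure D1:**
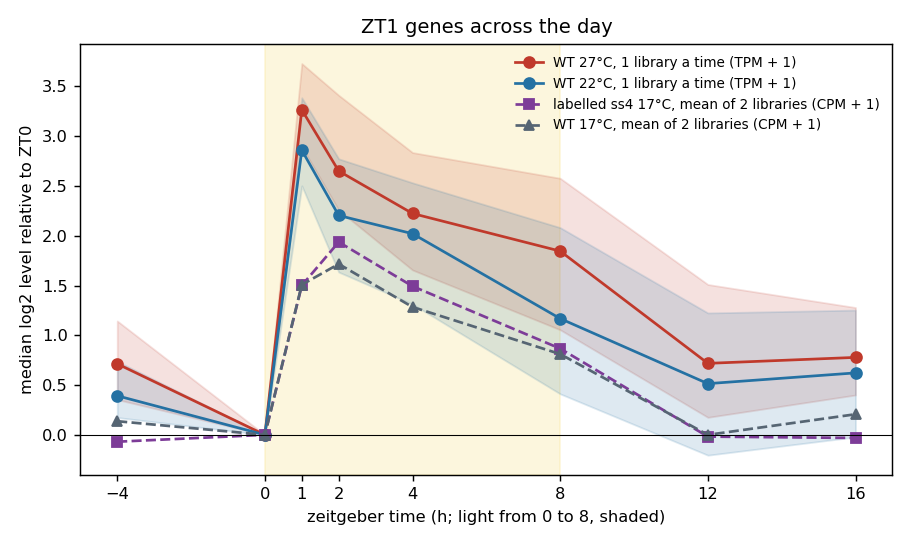
Median log2 level over ZT0 of the members (vertical axis) by zeitgeber time in hours (horizontal axis) in WT at 27°C and 22°C (TPM + 1, 1 library per point, 100 members) and in ss4 and WT at 17°C (CPM + 1, mean of 2 libraries per point, 97 members), with light hours shaded and bands from the 25th to the 75th percentile of members for the 27°C and 22°C courses. The 27°C and 22°C medians are highest at ZT1, at 3.26 and 2.86, while ss4 and WT at 17°C are highest at ZT2, at 1.94 and 1.72.

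In WT at 17°C, a temperature that the rule did not use, the same genes rose after dawn. At ZT1 against ZT0, 87 of the 97 members tested were higher and 0 lower (edgeR quasi-likelihood test, Benjamini-Hochberg adjusted p under 0.05), where 7.74% of all 20692 genes tested were higher and 8.04% lower. The median log2 fold change of members was 1.64, and of all genes 0.00. At ZT2, 95 of 97 were higher and 0 lower (15.9% of all genes in each direction), with a median of 2.03, and at ZT4, 80 were higher and 5 lower (17.7% and 18.2% of all genes), with a median of 1.41. At 17°C 29 members were highest at ZT1 and 49 at ZT2. The peak at ZT1 in the warm courses follows in part from the rule, so the peak times are set side by side as a description. As a comparison, 63 of 98 warm-raised ZT1 genes and 78 of 99 warm-lowered ZT1 genes were higher at ZT1 than at ZT0.

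PRR9 had the largest rise at ZT1 at 17°C, by a log2 fold change of 5.41 ± 0.20 (SE, adjusted p = 6.8e-16, edgeR), followed by ELIP1, PAP17, AT1G51090 (a heavy metal-associated protein) and AT2G27420 at 4.87, 4.45, 4.24 and 4.11. ELIP1 was at 219 and 280 CPM at ZT1 and 391.6 and 410 CPM at ZT2, against 10.7 and 6.56 CPM at ZT0. TBL26 was at 32.3 and 38.3 CPM at ZT1 and 144 and 139 CPM at ZT2, against 2.54 and 2.12 CPM at ZT0, a log2 change at ZT2 of 5.93 ± 0.35 (adjusted p = 3.5e-12). All libraries in the light stood above both at ZT0 for these 2 genes. The next largest at ZT2 were PAP17 (5.62), ELIP1 (5.55), LSU2 (5.26) and SWEET13 (4.53).

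By functional group, with no test between groups, the flavonoid and phenylpropanoid enzymes were higher in 6 of 8 tested at ZT1 and in 8 of 8 at ZT2 and at ZT4, and TT4 had 743 and 841 CPM at ZT4, against 98.5 and 97.6 CPM at ZT0. Of the 11 tested genes of the flavonoid list, which includes genes that are no members, 6 were higher at ZT1 and 11 at ZT2 and at ZT4. The photoprotection, repair and quinone genes were higher in 6 of 6 at ZT1 and ZT2 and in 4 of 6 at ZT4. SPS1 had 294 and 302 CPM at ZT1, 165 and 191 CPM at ZT2 and 68.8 and 64.6 CPM at ZT4, beside 59.5 and 55.7 CPM at ZT0, so that its libraries at ZT4 were only just above those at ZT0. The 5 members lower at ZT4 than at ZT0 were PYE (−1.68 ± 0.27, adjusted p = 3e-05), AO (L-aspartate oxidase, −0.83), AT3G21670 (a nitrate transporter family protein, −0.62), NAS4 (−0.59) and AT1G48100 (a pectin lyase-like protein, −0.51). PYE had 10.09 and 11.3 CPM at ZT4 and 115 and 96.5 CPM at ZT2, beside 26.7 and 41.2 CPM at ZT0.

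F3H and the long non-coding RNA AT1G06002 could not be tested on counts. The F3H gene is overlapped over 94.5% of its length by the annotated antisense gene AT3G51238 and had 0 counts in 48 of 60 libraries, although the same files list TPM of 12.1 to 653 for it. AT1G06002 had 0 counts in all 60. AT1G06475, overlapped over 100% of its length by AT1G06470, was tested but had at most 65 counts in any library. The methyltransferase family gene AT1G73600 overlaps no annotated gene and had 0 to 22 counts beside up to 368 TPM, with 0 counts and at least 5 TPM in 6 libraries. It was tested in the ss4 course, where its changes rest on few counts. In TPM, with no test, F3H was at 507 and 653 in ss4 at ZT2 against 445 and 483 in WT at ZT2, and at 32.5 and 29.6 in ss4 at ZT0 against 30.5 and 27.3 in WT at ZT0. In the starch mutants F3H was at 444 and 456 TPM in pgm, 449 and 510 TPM in ss3/4 and 419 and 428 TPM in ss3/4/pgm at ZT2. At ZT0 it was at 14.5 and 12.7 TPM in pgm, 27.3 and 23.7 TPM in ss3/4 and 18.2 and 13.8 TPM in ss3/4/pgm, all below WT, although 1 ss3/4 library was level with the lower WT library. In all, 24 members overlap another annotated gene, and reads of a gene and its antisense partner cannot be told apart where the counting does not use strand, which the sources used here do not give.

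The ss4 libraries were compared with WT at each time of day to ask whether loss of starch synthase 4 alters the morning rise. At ZT2 against ZT0 in ss4, 95 of 97 members were higher and 0 lower (18.7% and 18.4% of all genes), led by PAP17 (6.70), LSU2 (6.59) and ELIP1 (6.22). Between ss4 and WT few members differed. At ZT-4 0 were higher and 1 lower (0.029% and 0.0193% of all genes), the sulfate reductase APR2, with 61.0 and 60.1 CPM in ss4 and 130 and 102 CPM in WT. At ZT1 1 was higher and 0 lower (0.0483% and 0.00483%), AT1G04770, with 48.2 and 53.4 CPM in ss4 and 24.9 and 22.9 CPM in WT (log2 1.09 ± 0.20, adjusted p = 0.024, edgeR). It no longer passed when any 1 of these 4 libraries was left out. None passed at ZT0, ZT8 or ZT16 in either direction by edgeR. The counts at an unadjusted p under 0.05 were 3 higher and 2 lower at ZT0, 12 and 0 at ZT8 and 0 and 16 at ZT16. The shares of all genes at an unadjusted p are not given here or below, so such counts are only a description. DESeq2 called 0 at ZT0 and ZT8 and 2 lower at ZT16, of only 33 members with an adjusted p there.

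At ZT2 7 members were higher in ss4 than in WT and 0 lower (0.449% and 0.0822% of all genes), and 4 of the first 5 by size were chaperone genes or LSU2. Fes1A had 177 and 202 CPM in ss4 and 45.3 and 88.6 CPM in WT (1.48 ± 0.17, adjusted p = 5.2e-06). AT3G14200 had 125 and 141 CPM in ss4 and 54.2 and 70.5 CPM in WT (1.09 ± 0.12, adjusted p = 3.8e-06). AT1G66080 had 19.6 and 23.9 CPM in ss4 and 9.37 and 9.75 CPM in WT (1.19 ± 0.20, adjusted p = 0.0019). LSU2 had 104 and 146 CPM in ss4 and 48.6 and 49.0 CPM in WT (1.36 ± 0.21, adjusted p = 0.00031), and PAP17 had 173 and 201 CPM in ss4 and 87.2 and 98.04 CPM in WT (1.01 ± 0.23, adjusted p = 0.039). In each of these 5 genes both ss4 libraries stood above both WT libraries. Beside these, 14 of 17 genes of the heat list and 29 of 98 warm-raised ZT1 genes were higher in ss4 at ZT2. The count was 4 without WT replicate 1 and 2 without ss4 replicate 2, and keeping genes of low counts in the test gave 20.

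The ZT2 over ZT0 rise itself was larger in ss4 than in WT for 2 members and smaller for 0 (0.111% and 0.00967% of all genes). These were Fes1A, by a log2 difference of 1.39 ± 0.28 (adjusted p = 0.035), and AT3G14200, by 1.29 ± 0.23 (adjusted p = 0.012). At ZT4 12 members were higher in ss4 and 0 lower (2.88% and 2.54%), led by LSU2 (0.94), AT1G58170 (a dirigent-like protein, 0.93), NAS4 (0.90), scpl10 (0.87) and AT1G28600 (0.68). The sum of root markers moved with this comparison, at 91.2 and 107 CPM in ss4 and 162 and 185 CPM in WT at ZT4, and its part in the result was not tested. At ZT12 0 were higher and 3 lower (0.981% and 2.01%), namely FAH1 (−0.97), APR2 (−0.59) and NDL2 (−0.50).

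In pgm, ss3/4 and ss3/4/pgm the median member was lower than in WT before dawn and higher at ZT2, while 34 members had a larger rise than in WT in no mutant and 36 in all 3. These 3 comparisons share the same 4 WT libraries, and their values stand side by side for that reason only. The share of all genes with a larger rise in all 3 mutants, or in no mutant, is not given here. At ZT0 the median log2 fold change over 94 members was −0.61 in pgm, −0.38 in ss3/4 and −0.71 in ss3/4/pgm, where the median of all genes was −0.07, 0.01 and −0.04. At ZT2 it was 0.39 in pgm, 0.22 in ss3/4 and 0.37 in ss3/4/pgm. LSU2 and MIR157c, which had 0 or almost 0 counts at ZT0 in the mutants, are left out of these medians because their fitted folds have no interpretable size. The sum of root markers moved with the ZT0 comparison, at 87.8 and 74.9 CPM in pgm, 81.2 and 80.1 CPM in ss3/4 and 92.8 and 97.1 CPM in ss3/4/pgm, against 150 and 132 CPM in WT, and its part in the result was not tested.

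By the test, at ZT0 47 of 96 members were lower and 11 higher in pgm than in WT (28.9% and 28.1% of all 20130 genes tested), 44 lower and 19 higher in ss3/4 (28.1% and 30.4%), and 52 lower and 12 higher in ss3/4/pgm (30.7% and 30.6%). At ZT2 50 members were higher and 9 lower in pgm (19.4% and 21% of all genes), 47 higher and 27 lower in ss3/4 (26.6% and 27.4%), and 49 higher and 10 lower in ss3/4/pgm (19.7% and 21.7%). Within each mutant 95 of 96 members were higher at ZT2 than at ZT0 and 0 lower. The background in pgm was 29.8% higher and 28.5% lower, in ss3/4 24.9% and 26.8%, and in ss3/4/pgm 31.2% and 31%. The rise was larger than in WT for 54 members and smaller for 3 in pgm (14.4% and 16.8% of all genes), for 39 and 9 in ss3/4 (9.35% and 12.9%) and for 57 and 3 in ss3/4/pgm (15.7% and 17.8%).

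**Figure D2:**
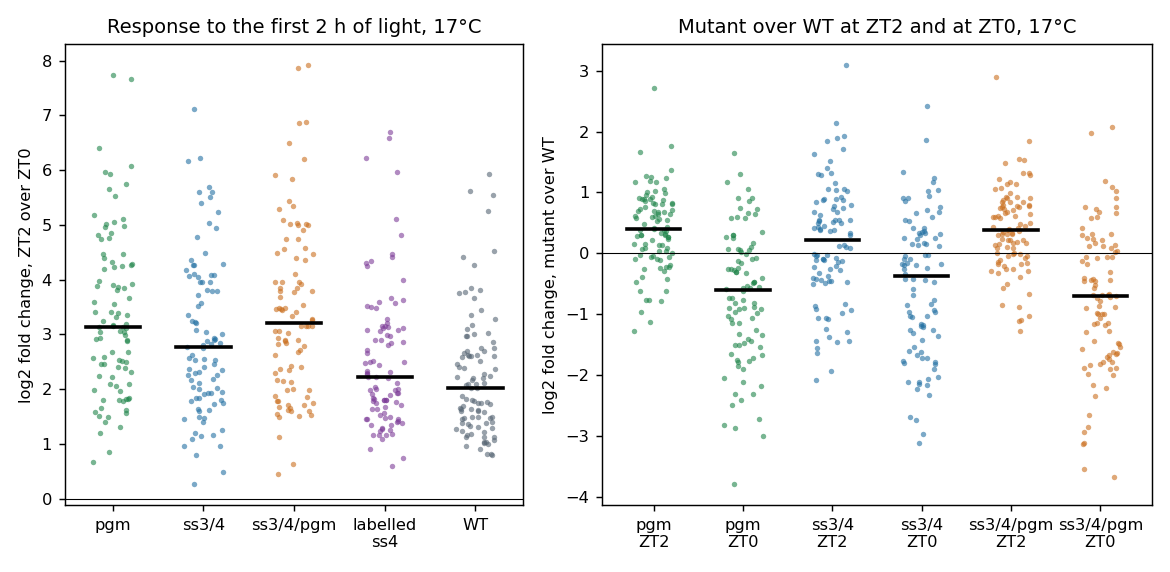
Log2 fold change (vertical axes) of members (points, 94 in the 3 starch mutants and their comparisons, 97 in ss4 and WT) at ZT2 over ZT0 in each genotype (left) and in pgm, ss3/4 and ss3/4/pgm over WT at ZT2 and at ZT0 (right), with bars at the medians. The medians on the left are 3.14 in pgm, 2.76 in ss3/4, 3.21 in ss3/4/pgm, 2.21 in ss4 and 2.03 in WT, and those on the right are above 0 at ZT2 (0.39, 0.22 and 0.37) and below 0 at ZT0 (−0.61, −0.38 and −0.71).

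The 6 genes of sulfur and methionine metabolism were not compared with other groups by a test. Of these, 5 were lower at ZT0 in each mutant, 4 were higher at ZT2 in each, and the rise was larger than in WT for 5 in pgm, 4 in ss3/4 and 5 in ss3/4/pgm. LSU2 had 151 and 168 CPM in pgm, 94.2 and 128 CPM in ss3/4 and 163 and 177 CPM in ss3/4/pgm at ZT2, against 42.5 and 42.7 CPM in WT. At ZT0 it had 0 counts in both libraries of pgm and of ss3/4/pgm and 0.256 and 0 CPM in ss3/4, against 0.928 and 1.21 CPM in WT. Set against a floor of 3 counts over both ZT0 libraries, LSU2 was at least 538-fold higher at ZT2 than at ZT0 in pgm and at least 1139-fold higher in ss3/4/pgm. By the same floor it was at least 4.15-fold lower in pgm than in WT at ZT0 and at least 8.55-fold lower in ss3/4/pgm. The folds against the floor used CPM without TMM scaling.

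AT1G04770 had 117 and 134 CPM in pgm, 89.96 and 95.5 CPM in ss3/4 and 130 and 136 CPM in ss3/4/pgm at ZT2, against 51.2 and 55.0 CPM in WT. At ZT0 it had 1.67 and 2.70 CPM in pgm, 2.73 and 1.96 CPM in ss3/4 and 0.977 and 1.23 CPM in ss3/4/pgm, against 9.38 and 10.5 CPM in WT. The mutant libraries were thus above WT at ZT2 and below WT at ZT0, with no overlap at either time. The log2 difference in the rise was 3.55 ± 0.27 in pgm (adjusted p = 2.7e-08), 2.83 ± 0.22 in ss3/4 (adjusted p = 7.6e-08) and 4.46 ± 0.25 in ss3/4/pgm (adjusted p = 6.7e-10, edgeR). APR2, which reduces activated sulfate, was at 798 and 815 CPM in pgm, 703 and 685 CPM in ss3/4 and 822 and 880 CPM in ss3/4/pgm at ZT2, against 374 and 433 CPM in WT. At ZT0 it was at 29.7 and 27.4 CPM in pgm, 34.997 and 32.4 CPM in ss3/4 and 21.4 and 28.3 CPM in ss3/4/pgm, against 82.0 and 85.2 CPM in WT, again with no overlap.

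MAT3 and SHM4, which make S-adenosylmethionine and one-carbon units, stayed at or below WT at ZT2. MAT3 was at 922 and 813 CPM in pgm, 407 and 426 CPM in ss3/4 and 819 and 841 CPM in ss3/4/pgm at ZT2, against 1037 and 1001 CPM in WT. The fall at ZT2 passed the test in ss3/4 (−1.29 ± 0.10, adjusted p = 9.6e-09) and ss3/4/pgm (−0.30 ± 0.10, adjusted p = 0.027) and not in pgm (−0.23 ± 0.10, adjusted p = 0.078, edgeR).

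Among the members whose difference in the rise passed the test, the uncharacterized AT5G55620 had the largest one in each mutant, leaving aside LSU2 and MIR157c, whose fitted values have no interpretable size. It had 150 and 156 CPM in pgm, 190 and 153 CPM in ss3/4 and 163 and 149 CPM in ss3/4/pgm at ZT2, against 75.5 and 89.1 CPM in WT. At ZT0 it had 7.35 and 6.18 CPM in pgm, 14.9 and 5.89 CPM in ss3/4 and 4.396 and 2.93 CPM in ss3/4/pgm, against 45.0 and 47.4 CPM in WT. The difference in log2 rise was 3.62 ± 0.34 in pgm, 3.12 ± 0.29 in ss3/4 and 4.60 ± 0.33 in ss3/4/pgm (adjusted p = 3.2e-07, 4.7e-07 and 9.8e-09). AT1G58170 (3.60 in pgm) and AT2G44940, an AP2-type DNA-binding protein (3.04 in ss3/4 and 3.55 in ss3/4/pgm), came close to it. AT3G48240, a PB1-domain protein, went the other way, with differences of −2.61, −2.51 and −2.83 in pgm, ss3/4 and ss3/4/pgm. It was at 1.496 and 2.26 CPM in pgm, 2.75 and 4.75 CPM in ss3/4 and 1.77 and 2.57 CPM in ss3/4/pgm at ZT2, against 3.85 and 3.71 CPM in WT, and at 0.309 and 0.346 CPM in WT at ZT0, so that these values rest on few counts. The other members with a smaller rise were GSTU5 (−0.58) and AT2G44670 (−0.51) in pgm and GSTU5 (−0.81) and AT2G44670 (−0.56) in ss3/4/pgm. In ss3/4 the leading ones after AT3G48240 were AT5G64870 (−1.78), RXW8 (−0.84), RSR4 (−0.80) and GSTU5 (−0.77).

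scpl10 was lower than WT at both times in all 3 mutants. It had 35.6 and 35.5 CPM in pgm, 19.7 and 21.3 CPM in ss3/4 and 36.4 and 34.6 CPM in ss3/4/pgm at ZT2, against 98.6 and 74.7 CPM in WT. At ZT0 it had 1.34 and 3.09 CPM in pgm, 2.73 and 2.80 CPM in ss3/4 and 0.855 and 1.42 CPM in ss3/4/pgm, against 13.6 and 14.2 CPM in WT. AT5G41900, an alpha/beta hydrolase, was also low, by −3.80 at ZT0 and −1.13 at ZT2 in pgm and by −1.93 at ZT2 in ss3/4. PRR9 was higher than WT at both times. It had 136 and 128 CPM in pgm, 298 and 318 CPM in ss3/4 and 127 and 121 CPM in ss3/4/pgm at ZT2, against 75.8 and 88.8 CPM in WT. At ZT0 it had 7.69 and 5.405 CPM in pgm, 7.43 and 7.15 CPM in ss3/4 and 7.33 and 9.74 CPM in ss3/4/pgm, against 3.20 and 4.32 CPM in WT. The clock list, of which PRR9 is the only member here, was higher at ZT2 in 10 of 15 genes in pgm (19.4% of all genes). It was higher in 13 of 15 in ss3/4 (26.6%) and 11 of 15 in ss3/4/pgm (19.7%). The MIR163 primary transcript and UP6, an uncharacterized protein, were likewise high at ZT0, by 1.17 and 1.31 in pgm, and MIR163 by 1.86 in ss3/4 with MES9 (1.34) and MYB13 (1.17).

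**Figure D3:**
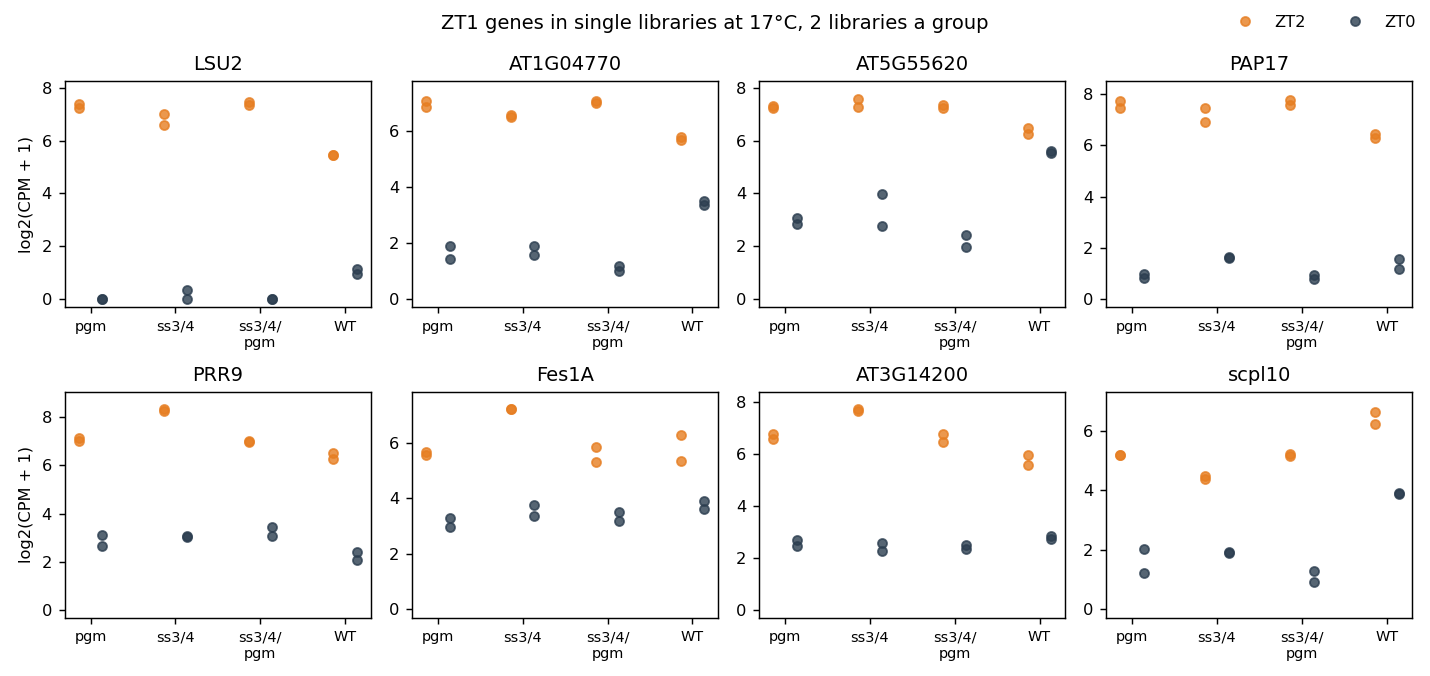
log2(CPM + 1) (vertical axis) of 8 members in each library of pgm, ss3/4, ss3/4/pgm and WT at ZT2 and at ZT0. LSU2, AT1G04770 and AT5G55620 lie above WT at ZT2 and below it at ZT0 in the mutants, PRR9 lies above WT at both times and scpl10 below it at both.

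Several members had their largest excess at ZT2 outside these groups. AT1G51090 was the highest of all by log2 fold change, at 2.72 in pgm, 3.10 in ss3/4 and 2.89 in ss3/4/pgm, with 8.15 and 7.85 CPM in pgm, 10.7 and 9.97 CPM in ss3/4 and 8.94 and 9.09 CPM in ss3/4/pgm, against 1.49 and 1.00 CPM in WT. AT1G06980 followed at 1.76 in pgm and 1.55 in ss3/4/pgm, AT4G16880 at 1.67 and 1.85, and SWEET13 at 1.54 in ss3/4/pgm. LSU1 was higher by 1.38 in pgm, where it had 23.6 and 25.7 CPM, against 17.9 and 3.01 CPM in WT, a wide spread between the WT libraries. Lower in pgm, ss3/4 and ss3/4/pgm were AT4G04745 (−0.77, −1.24 and −1.03) and AT3G09440 (−0.76, −1.07 and −0.89). Of the 8 tested flavonoid and phenylpropanoid enzymes, 4 were higher and 1 lower than WT at ZT2 in pgm (19.4% and 21% of all genes). In ss3/4 the counts were 2 and 3 (26.6% and 27.4%), and in ss3/4/pgm 2 and 1 (19.7% and 21.7%). With only 8 genes, the counts in ss3/4 and ss3/4/pgm were not far from these shares. At ZT0 7, 5 and 7 were lower in pgm, ss3/4 and ss3/4/pgm (28.9%, 28.1% and 30.7% of all genes). FAH1 had 24.1 and 21.6 CPM in pgm, 23.6 and 24.8 CPM in ss3/4 and 19.5 and 19.3 CPM in ss3/4/pgm at ZT0, against 63.2 and 60.2 CPM in WT. GBSS1, whose product makes amylose, had 62.1 and 64.1 CPM in pgm, 69.1 and 56.8 CPM in ss3/4 and 62.2 and 69.0 CPM in ss3/4/pgm at ZT0, against 205 and 224 CPM in WT. For both genes every mutant library lay below both WT libraries.

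More of the chaperone members were higher than WT at ZT2 in ss3/4 than in the other 2 mutants. At ZT2 3 of the 4 were higher than WT and 1 lower in ss3/4, with a larger rise in 4 of 4, and in pgm and in ss3/4/pgm 1 was higher and 1 lower, with a larger rise in 2. The lower member in each mutant was AT3G09440. Fes1A had 149 and 147 CPM in ss3/4, 46.6 and 49.9 CPM in pgm and 56.0 and 39.1 CPM in ss3/4/pgm at ZT2, against 39.6 and 77.3 CPM in WT. Only ss3/4 lay above both WT libraries (1.32 ± 0.20, adjusted p = 2.5e-05, edgeR). AT3G14200 had 212 and 203 CPM in ss3/4, 94.4 and 109 CPM in pgm and 108 and 87.1 CPM in ss3/4/pgm, against 47.5 and 61.4 CPM in WT. For this gene the libraries of every mutant lay above both WT libraries. Beside these, 17 of 17 genes of the heat list were higher in ss3/4 than in WT at ZT2, against 3 of 17 in pgm and 3 of 17 in ss3/4/pgm. Of all genes, 26.6% were higher than WT at ZT2 in ss3/4, 19.4% in pgm and 19.7% in ss3/4/pgm.

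The difference between ss3/4 and ss3/4/pgm at ZT2 was tested directly, between libraries of the same set. Of 96 members, 12 were higher in ss3/4 and 34 lower (13.6% and 12.4% of all genes), and the median was −0.23 (all genes 0.01). Fes1A was higher by 1.61 ± 0.21, and PRR9, UGT73C1 (a glycosyltransferase), AT3G14200 and AT1G66080 by 1.31, 1.08, 1.08 and 1.07. AT2G27420 was lower, with 40.7 and 31.3 CPM in ss3/4 and 120 and 132 CPM in ss3/4/pgm (−1.78 ± 0.14). The other large falls were in AT5G64870 (−1.78), AT1G06475 (−1.77, on few counts), SWEET13 (−1.65) and TBL26 (−1.52). SWEET13 had 6.64 and 8.43 CPM in ss3/4 and 23.0 and 23.3 CPM in ss3/4/pgm. Organelle genes took 0.849% to 1.03% of counts in ss3/4 at ZT2, beside 8.997% to 9.48% in ss3/4/pgm, and leaving them out changed no count of member calls by more than 1.5 times.

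In liquid culture at ZT1 the question was whether blocking photosynthetic electron transport changes the level of these genes. Of 96 members tested, 15 were lower and 0 higher in the libraries labelled DCMU than in mock at 22°C (2.05% and 1.44% of all 20291 genes), and 7 were lower and 0 higher in those labelled DBMIB (1.1% and 0.557%). At 27°C 13 were lower and 1 higher with DCMU (3.62% and 2.86%) and 15 lower and 1 higher with DBMIB (3.72% and 2.85%). The medians were −0.68 for DCMU and −0.55 for DBMIB at 22°C, and −0.37 for DCMU and −0.52 for DBMIB at 27°C, with medians of all genes between 0.02 and 0.06. The sum of root markers at 22°C was 125 and 99.3 CPM with DCMU and 100.9 and 117 CPM with DBMIB, against 187 and 167 CPM in mock, and at 27°C 115 and 73.9 CPM with DCMU and 78.6 and 131 CPM with DBMIB, against 160 and 138 CPM in mock. The sum of leaf and shoot markers at 22°C was 8317 and 5719 CPM with DCMU and 7786 and 8556 CPM with DBMIB, against 10673 and 9800 CPM in mock. At 27°C it was 10444 and 3558 CPM with DCMU and 3561 and 6759 CPM with DBMIB, against 8266 and 7539 CPM in mock. Both sums were below mock in all inhibitor libraries, except for the shoot markers in DCMU replicate 1 at 27°C, and their part in the results was not tested. At 22°C and an unadjusted p under 0.05, 0 members were higher with either label, and 40 (DCMU) and 29 (DBMIB) were lower. The shares of all genes at that threshold are not given. DESeq2 called 0 higher at 22°C. The DCMU and DBMIB comparisons share their mock libraries. The crossed replicates widened the spread, and when only the groups compared entered the fit 0 members passed in any of the 4 comparisons. Leaving out 1 of the libraries compared gave 0 to 7 lower members with DCMU and 0 with DBMIB at 22°C, and 2 to 12 with DCMU and 2 to 15 with DBMIB at 27°C.

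AT1G20070, an uncharacterized protein, had the largest fall. At 22°C it had 7.25 and 3.06 CPM with DCMU and 3.45 and 7.43 CPM with DBMIB, against 54.1 and 57.7 CPM in mock and 84.4 and 91.8 CPM in untreated seedlings. At 27°C it had 3.38 and 4.55 CPM with DCMU and 2.89 and 8.01 CPM with DBMIB, against 51.3 and 49.6 CPM in mock and 58.8 and 62.7 CPM in untreated seedlings. All inhibitor libraries lay far below the mock and untreated ones, whichever label they carried. Its log2 fold changes against mock were −3.44 ± 0.52 (DCMU, adjusted p = 0.0091) and −3.31 ± 0.52 (DBMIB, adjusted p = 0.018) at 22°C, and −3.64 ± 0.54 (DCMU, adjusted p = 0.0059) and −3.18 ± 0.51 (DBMIB, adjusted p = 0.0072) at 27°C (edgeR).

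AT2G27420 had 4.05 and 5.96 CPM with DCMU and 5.04 and 7.0 CPM with DBMIB at 22°C, against 40.0 and 39.0 CPM in mock. At 27°C it had 11.1 and 4.66 CPM with DCMU and 3.68 and 12.5 CPM with DBMIB, against 49.8 and 51.4 CPM in mock. NDL2, of the N-MYC downregulated-like family that acts with G-protein signalling, had 9.41 and 9.43 CPM with DCMU and 8.49 and 12.7 CPM with DBMIB at 22°C, against 34.2 and 36.3 CPM in mock. Both genes passed the test with both labels at both temperatures. NDL2 fell by 2.26 (DCMU) and 2.38 (DBMIB) on the log2 scale at 27°C, where it had 14.1 and 12.4 CPM with DCMU and 8.55 and 15.7 CPM with DBMIB, against 57.6 and 69.5 CPM in mock.

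GBSS1, FAH1, SHM4 and PHR1 were also below mock. GBSS1 had 44.5 and 45.8 CPM with DCMU and 55.4 and 71.4 CPM with DBMIB at 22°C, against 168 and 162 CPM in mock, and passed with DCMU (−1.87 ± 0.35, adjusted p = 0.020). At 27°C it had 33.2 and 17.8 CPM with DCMU and 15.5 and 31.2 CPM with DBMIB, against 90.05 and 109 CPM in mock, and passed with both (−1.98 and −2.08). FAH1 had 43.1 and 28.9 CPM with DCMU and 41.4 and 57.4 CPM with DBMIB at 22°C, against 152 and 155 CPM in mock. SHM4 had 128 and 70.8 CPM with DCMU and 92.8 and 132 CPM with DBMIB at 22°C, against 325 and 316 CPM in mock, and at 27°C 148 and 108 CPM with DCMU and 104 and 116 CPM with DBMIB, against 377 and 360 CPM in mock. It fell with both labels at both temperatures (−1.69 with DCMU and −1.51 with DBMIB at 22°C, −1.53 and −1.74 at 27°C), and the photolyase gene PHR1 did so with a smaller change (−1.31 and −1.0 at 22°C, −0.91 and −1.05 at 27°C). PHR1 had 12.4 and 13.4 CPM with DCMU and 14.9 and 17.2 CPM with DBMIB at 22°C, against 29.6 and 34.6 CPM in mock, with no overlap. TT4 was below mock in all 8 inhibitor libraries but varied too much between them to pass. It had 4.24 and 1.74 CPM with DCMU and 15.9 and 6.83 CPM with DBMIB at 22°C, against 21.3 and 28.4 CPM in mock. F3H, in TPM and with no test, was at 25.8 and 12.1 with DCMU and 13.97 and 52.1 with DBMIB at 22°C, against 78.9 and 95.6 in mock.

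PRR9 was the member that rose, and it passed the test only at 27°C. There it had 281 and 279 CPM with DCMU and 279 and 285 CPM with DBMIB, against 163 and 152 CPM in mock and 168 and 145 CPM in untreated seedlings (0.83 ± 0.18, adjusted p = 0.027 for DCMU, and 0.84 ± 0.18, adjusted p = 0.025 for DBMIB, edgeR). The call was lost when any 1 of the libraries compared was left out. At 22°C it had 219 and 293 CPM with DCMU and 304 and 246 CPM with DBMIB, against 266 and 260 CPM in mock, which overlap. No member passed the test of a difference in the DCMU or DBMIB effect between the temperatures (edgeR and DESeq2 0 in each direction, 0% of all genes by edgeR). The crossed inhibitor libraries set the spread of this fit, with an SE of 2.97 for Fes1A with DCMU. The test could therefore show little about temperature. At an unadjusted p under 0.05, 3 members were higher and 0 lower for DCMU and 1 and 1 for DBMIB.

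The chaperone and low-sulfur members split by library and not by label. At 22°C Fes1A had 11.7 and 799 CPM in the libraries labelled DCMU and 748 and 13.3 CPM in those labelled DBMIB, against 91.1 and 122 CPM in mock. At 27°C it had 28.3 and 1781 CPM with DCMU and 1922 and 41.7 CPM with DBMIB, against 220 and 197 CPM in mock. AT3G09440 had 88.3 and 1821 CPM with DCMU and 2252 and 98.3 CPM with DBMIB at 22°C, against 886 and 957 CPM in mock. LSU2 had 2.16 and 78.5 CPM with DCMU and 92.8 and 3.5 CPM with DBMIB at 22°C, against 5.92 and 10.9 CPM in mock. In each case 1 library of each label was above mock and the other below it, in the same crossed pattern, and no direction can be given for either chemical.

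**Figure D4:**
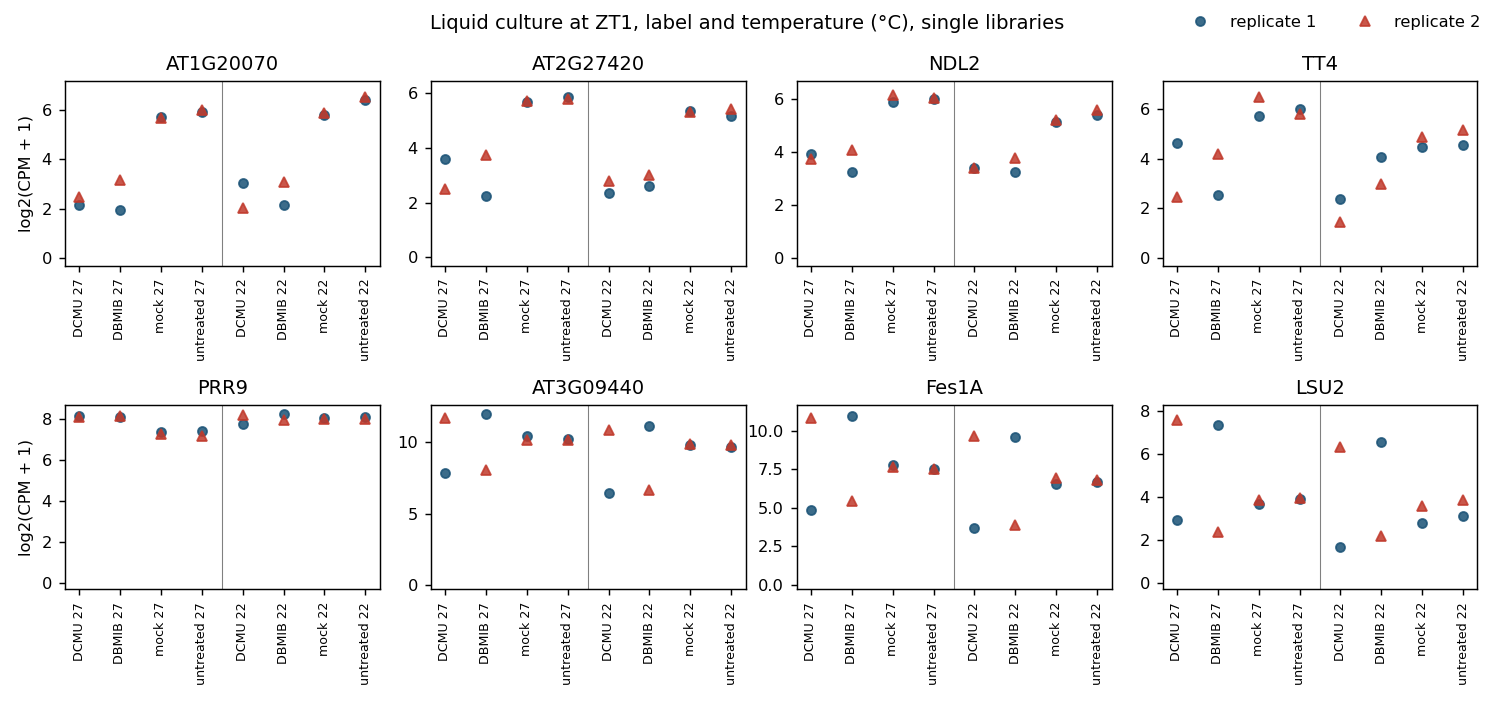
log2(CPM + 1) (vertical axis) of 8 members in each liquid culture library (circles replicate 1, triangles replicate 2) by treatment and temperature. The inhibitor libraries of AT1G20070, AT2G27420 and NDL2 all lie below mock, while those of AT3G09440, Fes1A and LSU2 lie on both sides of it within each label.

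Because of this crossing, the members were also counted without regard to label. All 4 inhibitor libraries lay below both mock libraries in 47 of 96 members at 22°C (19% of all genes) and in 43 at 27°C (19.8%). All 4 lay above both in 0 members at 22°C (17.1%) and in 1 at 27°C (18.4%), which was PRR9. The 2 temperatures have separate mock libraries, and 35 members were below at both, which is 35 of the 47 and 35 of the 43. The share of all genes below mock at both temperatures is not given here, so this overlap is only a description. At 22°C 45 of 93 warm-lowered and 32 of 97 warm-raised ZT1 genes were below mock, and at 27°C 38 of 93 and 31 of 97.

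With the inhibitor libraries numbered 1 or 2 alone, an alternative added after the crossing was seen, more members passed. At 22°C 72 were lower and 1 higher with the DCMU library 1 (14.5% and 15.6% of all genes), and 51 lower and 24 higher with the DCMU library 2 (23.5% and 27.5%). For DBMIB at 22°C the counts were 42 lower and 23 higher with library 1 (18.5% and 22.5%) and 59 and 3 with library 2 (11.8% and 13.5%). At 27°C they were 44 and 3 (12.9% and 14.8%) and 47 and 29 (26% and 30.3%) for DCMU, and 49 and 26 (27.8% and 29.4%) and 65 and 3 (19.6% and 18.5%) for DBMIB. In these fits the lone inhibitor library is assumed to vary like the other groups.

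The direct comparisons of DBMIB with DCMU and of mock with untreated seedlings called 0 members in either direction at either temperature, by edgeR (0% of all genes) and by DESeq2. At an unadjusted p under 0.05, 1 member was higher with DBMIB at 22°C and 0 lower, and 0 in each direction at 27°C, and for mock 0 in each direction at both temperatures. Inhibitor libraries of the same label did not match, and each matched a library of the other label. The comparison of DBMIB with DCMU could therefore not show a difference between the chemicals. Mock against untreated was tested in the same fit, whose spread those libraries set.

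The liquid cultures also gave a replicated test of the temperature match at ZT1, in samples that the rule did not use. In the fit of all 16 libraries 0 members differed between 27°C and 22°C in untreated seedlings (0.0148% of all genes higher and 0.00493% lower) and 0 in mock (0.0246% and 0.00493%) by edgeR. The counts at an unadjusted p under 0.05 were 3 higher and 4 lower in untreated and 2 and 3 in mock, and DESeq2 called 0 and 1 in untreated and 1 and 1 in mock. The crossed inhibitor libraries set the spread of that fit. With the untreated and mock libraries alone, added after seeing the data, 19 of 95 members were higher at 27°C and 18 lower in untreated seedlings (12% and 10.8% of all 19838 genes), and 25 were higher and 14 lower in mock (14% and 13.1%). In each of these counts the share of members was above that of all genes, though only narrowly for the lower ones in mock. The name of the list thus describes ZT1 in the day course and not these cultures.

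The median log2 ratio 27°C over 22°C of the members was −0.01 in untreated seedlings and 0.18 in mock, where the warm-raised ZT1 genes had 0.89 and 1.09 and the warm-lowered ZT1 genes −0.44 and −0.35. The members that were higher at 27°C in the fit of untreated and mock libraries were led in untreated seedlings by PAP17 (1.48), scpl10 (1.39), AT1G66080 (0.99), TT4 (0.98) and ELIP1 (0.91). In mock they were led by scpl10 (2.38), AT1G06475 (1.63, on few counts) and TT4 (1.49). Those that were lower were led by PYE (−1.31), UP6 (−1.20), AT4G29110 (−1.01), GBSS1 (−0.82) and PRR9 (−0.76) in untreated seedlings and by AT4G29110 (−1.40), PYE (−1.05), UP6 (−1.04), MIR163 (−0.75) and PRR9 (−0.73) in mock. scpl10 had 9.41 and 10.2 CPM at 27°C and 2.38 and 4.48 CPM at 22°C in untreated seedlings. PAP17 had 27.7 and 28.4 CPM at 27°C and 10.6 and 9.65 CPM at 22°C, so that for both genes the 2 temperatures did not overlap, although their ratio at ZT1 in the day course was within the window.

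**Figure D5:**
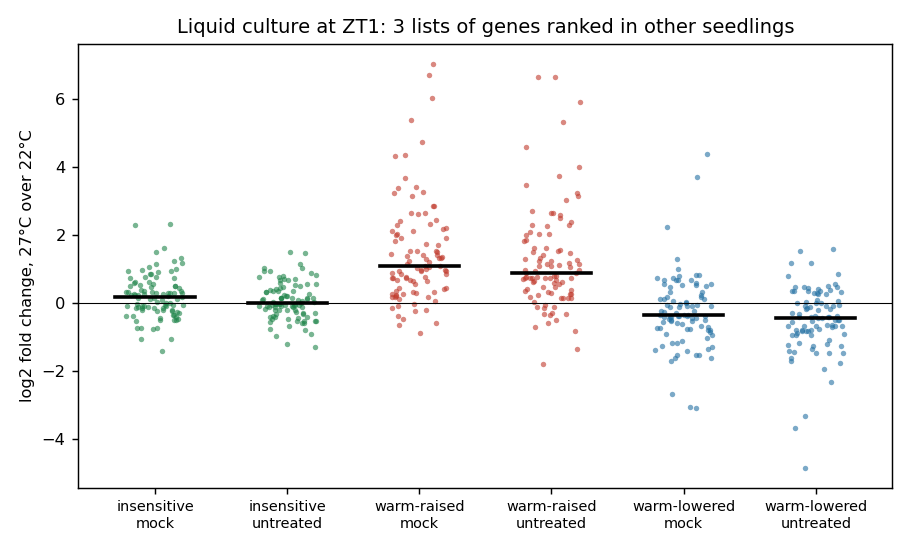
Log2 ratio 27°C over 22°C at ZT1 (vertical axis) in mock and untreated liquid cultures of the temperature-insensitive, warm-raised and warm-lowered ZT1 genes (points are genes, bars medians, 2 libraries per group). The medians in mock and untreated are 0.18 and −0.01 for the temperature-insensitive genes, 1.09 and 0.89 for the warm-raised and −0.35 and −0.44 for the warm-lowered genes.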

How the data were processed

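RNA from pools of Col0 seedlings was sequenced as paired reads by the authors. The kits, TruSeq Stranded mRNA and TruSeq RNA v2 are both named, without saying which library used which. Per the submitters' processing notes, FastQC, Trimmomatic, TopHat and Picard were used with TAIR10, with no versions given, and the counter and its treatment of strand are not given in the sources used here. The deposited files hold raw read counts per gene and TPM for each of 60 libraries, and a TPM table of the authors for the day course at 22°C and 27°C, with 16 libraries and 1 per point, in which the columns ZT-12 and ZT-8 were taken as ZT12 and ZT16. No column of the authors' own comparisons was used.

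Counts as deposited were tested with the edgeR 4.0.16 quasi-likelihood test (R 4.3.3) in 3 fits, the ss4 course (32 libraries), the starch mutants with WT (16) and the liquid cultures (16), with filterByExpr, TMM and Benjamini-Hochberg adjustment over all genes tested, and calls at an adjusted p under 0.05. Of the 100 members, 96 or 97 passed the filter. Each SE after ± is the size of the log2 fold change divided by the square root of the F statistic of its test. It is therefore approximate. Whether replicates came from separate sowings is not given, so p-values measure the spread between these libraries. Replicate numbers are in the labels, but same-numbered libraries did not deviate together in the ss4 course (median r of deviations 0.04) or in the mutants (0.01). In the liquid cultures the median was 0.08 with a range of −0.86 to 0.86, so some same-numbered groups deviated together and others oppositely. The main fits did not use the numbers to pair the samples. The scripts were tested on simulated data. Alternatives were DESeq2 1.42.0, its size factors, no filter, only the groups compared, the replicate number as a block, each library left out and 4 changes of the gene rule.

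The members and lists were chosen with earlier results of these data known. Named genes are the first 15 members, members in a functional list, up to 5 members with the largest rise and fall per comparison among called members with libraries that do not overlap, those at the rule's limits and those passing a test of a difference in response. A few others of the functional groups were chosen after their values were seen. Sequences were read from RefSeq TAIR10.1 by locus tag, which matched 100 of 100 members. Intervals from 2 libraries a group are wide, and low counts set the precision of genes under a few CPM.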

Additional observations from a re-analysis of the deposited data

Results flagged for a closer look

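The rise at ZT2 over ZT0 differed between genotypes by a test of the difference itself (edgeR interaction term). It was larger in ss4 than in WT for 2 members, Fes1A (1.39) and AT3G14200 (1.29), in 2 libraries a group.

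It was larger than in WT for 54 members and smaller for 3 in pgm, for 39 and 9 in ss3/4, and for 57 and 3 in ss3/4/pgm. Leaving aside LSU2 and MIR157c, whose fitted values have no interpretable size, the largest difference among the members that passed was that of AT5G55620, at 3.62 in pgm, 3.12 in ss3/4 and 4.60 in ss3/4/pgm on the log2 scale, and the largest in the other direction that of AT3G48240, at −2.61 in pgm, −2.51 in ss3/4 and −2.83 in ss3/4/pgm. These 3 comparisons share the WT libraries, which were made for the ss4 course.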

How the results depend on the processing

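Of 512 alternative values over 61 results, 418 kept within 1.5 times of the count given in the report and 94 moved. Higher and lower members were counted separately, so these values could not show a reversal of direction. Results with no member called under either setting were among those kept. DESeq2's size factors and, as a choice made after seeing the data, leaving out organelle genes moved no count by more than 1.5 times. The cause of the other moves was not tested unless given.

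For ss4 over WT at ZT1 the count of higher members was 4 without the filter on low counts, 4 with only the groups compared in the fit and 0 under the 50-gene rule. At ZT2 it was 20 without the filter, 3 under a ratio window of 0.9 to about its inverse (54 of the 100 members shared) and 7 under the 50-gene rule. The count of lower members at ZT2 was 2 in pgm and 2 in ss3/4/pgm under the 50-gene rule, which holds fewer genes.

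DESeq2 called more lower members with the inhibitors, 28 (DCMU) and 20 (DBMIB) at 22°C and 21 (DCMU) and 24 (DBMIB) at 27°C, and at 27°C over 22°C 1 lower in untreated and 1 higher and 1 lower in mock. With only the groups compared in the fit, 0 were lower with DCMU and 0 with DBMIB at 22°C, and 0 lower and 0 higher with DCMU and with DBMIB at 27°C, while 27°C over 22°C gave 20 higher and 19 lower in untreated and 24 and 14 in mock. PRR9 was lost with both labels at 27°C without the filter (0 higher) and is not a member under the narrower window (0 higher), and it was the 1 higher member under the 50-gene rule. With untreated and mock libraries alone, 1 member was lower in mock than in untreated at 22°C, and 27°C over 22°C gave 19 higher and 18 lower in untreated and 25 and 14 in mock.

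With only inhibitor library 1, and then only library 2, DCMU over mock gave 1 and 24 higher and 72 and 51 lower at 22°C, and 3 and 29 higher and 44 and 47 lower at 27°C. DBMIB over mock gave 23 and 3 higher and 42 and 59 lower at 22°C, and 26 and 3 higher and 49 and 65 lower at 27°C. DBMIB over DCMU gave 42 and 28 higher and 12 and 36 lower at 22°C, and 30 and 26 higher and 32 and 35 lower at 27°C. Each of these DBMIB over DCMU counts sets 1 library against 1 library, with no spread within either label. The share of all genes is not given for them, and the labels of these libraries may be crossed. They are listed as a record of the setting, and no difference between the chemicals can be read from them. The difference between temperatures gave 8 and 2 higher for DCMU, and 2 and 4 higher and, with library 1, 3 lower for DBMIB. These counts also rest on 1 library per inhibitor group, and the share of all genes is not given for them.

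Leaving out each library in turn gave 79 to 84 higher members at ZT1 in WT, 88 to 93 at ZT2, 92 to 94 at ZT2 in ss4, 0 to 0 for ss4 over WT at ZT1 and 2 to 7 at ZT2. The other ranges were 8 to 10 higher and 34 to 47 lower in pgm at ZT0, 40 to 47 and 6 to 10 at ZT2, 14 to 18 and 40 to 42 in ss3/4 at ZT0, 40 to 45 and 20 to 27 at ZT2, 11 to 12 and 45 to 49 in ss3/4/pgm at ZT0, and 41 to 48 and 7 to 11 at ZT2. The lower members were 0 to 7 with DCMU and 0 to 0 with DBMIB at 22°C, and 2 to 12 with DCMU and 2 to 15 with DBMIB at 27°C, where the higher ones were 0 to 0.

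The replicate number as a block gave 90 higher members at ZT1 and 96 at ZT2 in WT, 53 higher and 9 lower in pgm at ZT2 and 47 and 27 in ss3/4 at ZT2. The block moved no count by more than 1.5 times.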

Other observations

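The primary transcript of MIR163, a microRNA gene of Arabidopsis, was higher in the starch mutants at both times. At ZT2 it had 39.4 and 48.4 CPM in pgm, 65.0 and 77.9 CPM in ss3/4 and 39.6 and 34.8 CPM in ss3/4/pgm, against 17.4 and 21.6 CPM in WT. At ZT0 it had 15.9 and 15.1 CPM in pgm, 27.3 and 22.7 CPM in ss3/4 and 11.2 and 12.2 CPM in ss3/4/pgm, against 7.32 and 6.57 CPM in WT. Every mutant library lay above both WT libraries at each time, and the ss3/4 libraries were the highest.

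SPS1, which makes the prenyl chain of plastoquinone, had 307 and 270 CPM in pgm, 294 and 281 CPM in ss3/4 and 274 and 285 CPM in ss3/4/pgm at ZT2, against 144 and 167 CPM in WT. Its relative SPS2 had 200 and 209 CPM in pgm, 175 and 164 CPM in ss3/4 and 195 and 203 CPM in ss3/4/pgm, against 153 and 187 CPM in WT. The SPS1 levels in the mutants did not overlap those of WT, while ss3/4 overlapped WT in SPS2.

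Among the 33557 genes, 47 had 0 counts in all 60 libraries and over 50 TPM in at least 1 point of the day course.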
